A study of Gallus gallus with 27 samples.

Results

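Double-positive and E2-only cells of the chick embryo at Hamburger-Hamilton stage 25 (HH25) were compared by ATAC-seq, an assay in which a transposase inserts sequencing adapters into open chromatin. The comparison uses 6 of the 27 samples listed for the study, 3 libraries per population, chosen by their labels alone, and covers every interval of the deposited read count table. The embryos were wild-type and had been electroporated at HH8 to HH9 with the reporters NC2:citrine and E2:citrine. Vagal regions were dissected and dissociated, and the cells were sorted by flow cytometry. Double-positive cells were sorted as NC2-positive and E2-positive, and E2-only cells as NC2-negative and E2-positive. Negative cells, which had neither signal and came from equally electroporated embryos, are given for comparison. Both reporters carry citrine in the labels, and the sources used here do not say how their signals were separated. The HH18 groups used for the comparison of stages had the same genotype, reporters and sorting. Each library is a pool of sorted cells, and the labels speak of biological replicates without giving embryos per pool. No marker gene could be read, since intervals carry positions on the galGal5 build and no gene names, so the labelled cell types were not checked against markers.

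NC2 and E2 are known from background as enhancers of FOXD3 and SOX10, transcription factors that specify and maintain neural crest cells. The vagal neural crest leaves the dorsal neural tube next to the hindbrain and first somites. Its cells build most of the enteric nervous system and also give glia, pigment cells and smooth muscle and connective tissue around the heart outflow tract. Enhancers that are bound by transcription factors are typically open, so accessibility shows which regulatory elements are available in a population and not whether their genes are transcribed.

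The 3 double-positive libraries held 2609023 to 3781843 reads in intervals and the 3 E2-only libraries 4012324 to 4559073. A floor of 3 counts therefore lay at 0.770 to 1.13 CPM (read counts scaled to a common TMM-adjusted total) in double-positive and 0.602 to 0.675 CPM in E2-only libraries. The lowest deposited value in each of these libraries is 1, so a 1 may stand for 0 reads. Replicate double-positive libraries had Spearman correlations of 0.764 to 0.777 over intervals and E2-only libraries of 0.832 to 0.849. Between the populations the correlations were 0.694 to 0.716, below both ranges. Negative libraries correlated at 0.715 to 0.765 with E2-only and at 0.546 to 0.582 with double-positive libraries.

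**Figure D1:**
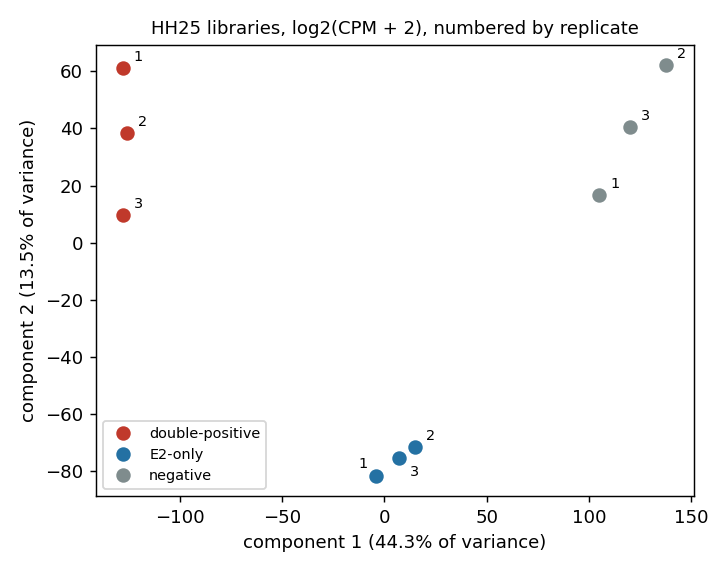
Principal components of the 9 HH25 libraries from log2 CPM with a pseudocount of 2, each point 1 library with its replicate number; the axes give scores on components 1 and 2. Component 1 (44.3% of variance) places E2-only libraries, at -4.00 to 15.2, between double-positive libraries at -128 to -126 and negative libraries at 105 to 138.

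The plot of principal components shows the populations in 3 separate groups. Component 2, with 13.5% of variance, set the E2-only libraries apart from both others. Component 3, with 9.73%, placed double-positive replicate 1 at 108, away from replicates 2 and 3 at -55.5 and -71.1.

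Double-positive cells were more accessible than E2-only cells at 11373 intervals (8.49% of the 134020 tested) and less accessible at 4250 (3.17%), by edgeR's quasi-likelihood test at a Benjamini-Hochberg adjusted p below 0.05. In all 11.7% of intervals were called and 72.8% of the calls were in the higher direction. The direction of that imbalance held under every scaling tried, but its size did not. The higher share of calls was 62.0% with median-of-ratios factors (9643 higher, 5902 lower), 63.1% with loess offsets (9859 and 5756) and 56.9% with library totals alone (9112 and 6900). Over all intervals the log2 change had a median of 0.05 as reported. It was -0.04 with median-of-ratios factors, -0.04 with loess offsets and -0.08 with library totals, so all 3 moved the changes downward. Each of the 4250 lower calls was also made under these 3 scalings, as were 9643, 9858 and 9112 of the higher calls, in that order. A downward shift favours lower calls, so their being kept is no test of them. Lower calls numbered 2512 without double-positive replicate 3 and 2823 without E2-only replicate 2. These held 1847 (43.5%) and 2477 (58.3%) of the 4250, and the others were new. Of the 11373 higher calls 7434 (65.4%) and 7502 (66.0%) were kept. Since these are sorted pools, fewer cells with an open element and a less open element in every cell cannot be told apart.

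At most calls the population with the lower level still held reads. The level of a closed element was not measured, so partly open and closed elements cannot be told apart here. Higher calls had a median log2 change of 1.40 (quartiles 1.14 and 1.68) and lower calls of -1.26 (quartiles -1.54 and -1.03). A change above 2-fold was fitted for 85.6% of higher and 77.4% of lower calls, above 4-fold for 8.52% and 6.24%, and above 8-fold for 17 and 4 intervals. The population with the lower level still kept a median of 37.9% of the other's mean CPM at higher calls and 41.7% at lower calls. These ratios are not corrected for background reads. At higher calls the library medians were 3.81 to 4.17 CPM in E2-only and 2.33 to 2.64 in negative cells. The mean of the population with the lower level lay under 1 CPM at 477 higher calls (4.19%) and 271 lower calls (6.38%). All 3 of its libraries were at the lowest value at only 5 and 14 of them. All double-positive libraries stood above all E2-only libraries at 14.9% of tested intervals and below at 10.8%. Among the calls, which were made from these same values, the shares were 91.0% and 93.6%.

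Calls in the higher direction were more frequent among abundant intervals, at 4.04% of the least abundant 20% and 13.6% of the most abundant 20%. Lower calls made up 1.87% and 3.53% of these groups, with a maximum of 4.35% in between. The median standard error of the log2 change went from 0.54 in the least to 0.26 in the most abundant group, so changes among weak elements were harder to detect.

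**Figure D2:**
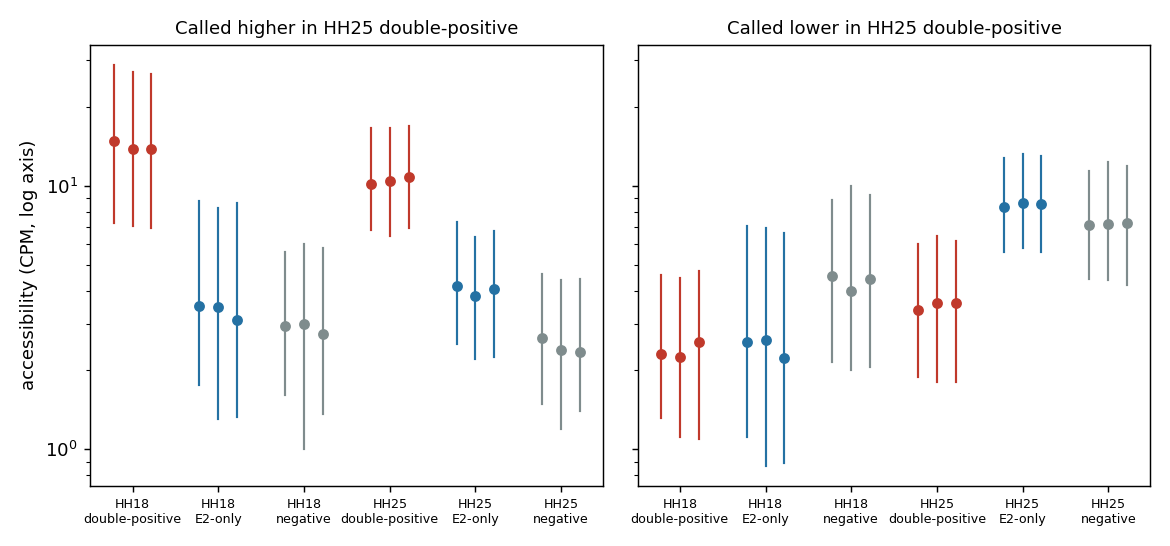
Accessibility (CPM, log axis) of intervals called higher (left) or lower (right) in HH25 double-positive than E2-only cells; each point is the median over the intervals in 1 library and each line spans its quartiles, for the 6 groups at HH18 and HH25. At higher calls the HH25 negative libraries (2.33 to 2.64 CPM) lie below E2-only, and at lower calls (7.09 to 7.24 CPM) they lie close to E2-only.

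The levels of the called intervals show where the negative cells stood. At the 11373 higher calls the median level was 10.2 to 10.8 CPM in the 3 double-positive libraries, 3.81 to 4.17 in E2-only and 2.33 to 2.64 in negative libraries. At the median the order at these elements was thus double-positive above E2-only above negative, with no overlap of library medians. Double-positive above E2-only was a condition of the calls, so that step is no further support. At the 4250 lower calls the medians were 3.39 to 3.60 CPM in double-positive, 8.35 to 8.63 in E2-only and 7.09 to 7.24 in negative libraries. Intervals less open in double-positive than in E2-only cells were therefore, at the median, nearly as open in cells with neither reporter signal as in E2-only cells. Higher calls held 15.8% ± 0.462 (SD, n = 3) of double-positive reads, 7.31% ± 0.374 of E2-only and 5.34% ± 0.156 of negative reads. Lower calls held 2.05% ± 0.0337, 4.86% ± 0.0501 and 4.13% ± 0.0475. These medians and shares include the libraries that chose the calls and are a description.

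**Figure D3:**
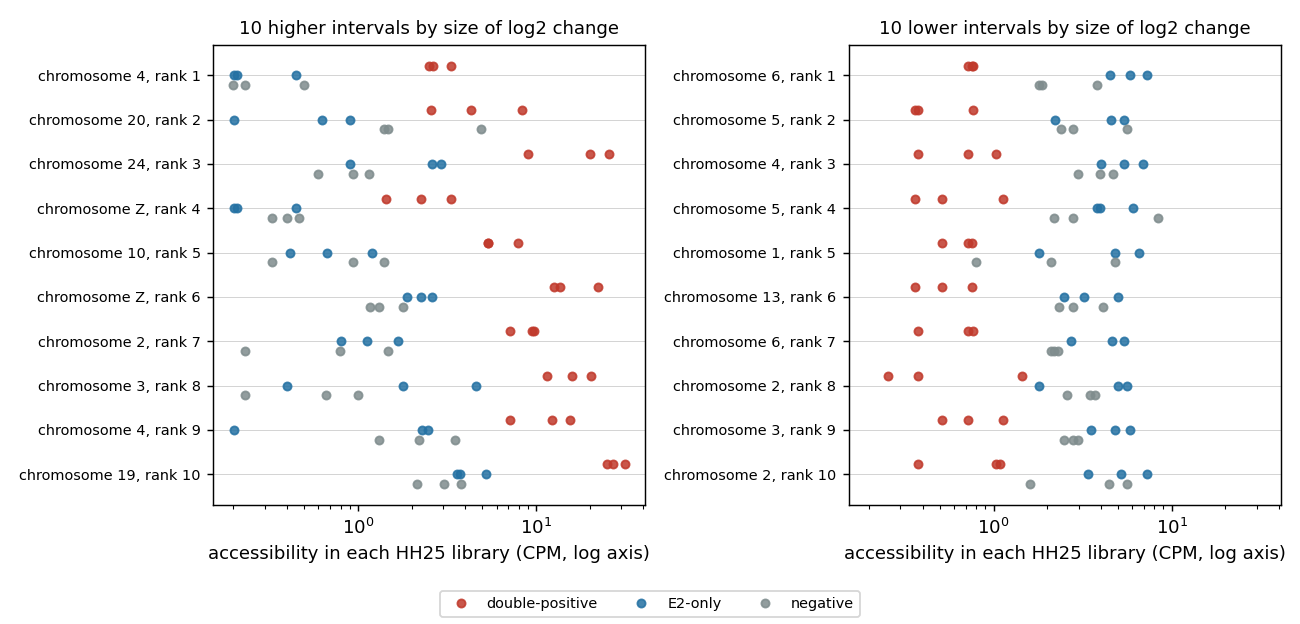
Accessibility (CPM, log axis) in each HH25 library of the 10 higher (left) and 10 lower (right) intervals with the greatest absolute log2 change among calls above the median abundance without overlap; each point is 1 library. Double-positive points at the lower intervals lie at 1.44 CPM or less, at 1 to 4 counts a library.

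Abundance in this choice is the mean over the HH18 and HH25 libraries together, so an interval that is weak at HH25 could be chosen only if it was strong at HH18. The HH18 levels and calls of these 20 intervals are therefore a description that the choice partly fixed. Being called and not overlapping between double-positive and E2-only libraries were also conditions of the choice, so neither is further support for these intervals. Among the 10 increases chosen in this way, the greatest lay on chromosome 4 from 89947907 to 89948107. It held 2.64, 2.52 and 3.34 CPM in the double-positive libraries, 0.209, 0.201 and 0.450 in E2-only and 0.495, 0.199 and 0.233 in negative libraries. The double-positive libraries were all above the other 6, though the E2-only values are 1, 1 and 2 counts. The ratio of summed counts, scaled by the TMM-adjusted totals, was 10.3, with a 95% counting interval of 3.59 to 40.5 that covers counting error only (adjusted p = 0.00125, edgeR). At HH18 the same interval was open in both populations, at 13.1 CPM ± 2.24 (SD, n = 3) in double-positive against 13.1 ± 4.69 in the E2-only cells, and was not called. The interaction of stage and population was called for it (log2 3.32, SE 0.80, adjusted p = 0.0015).

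A second increase with no HH18 call was on chromosome 20 from 7307119 to 7307319. Its HH25 values were 8.30, 4.32 and 2.57 CPM in double-positive against 0.626, 0.201 and 0.900 in E2-only libraries (log2 3.01, SE 0.63, adjusted p = 0.000242). The groups did not overlap, as the choice required, but the double-positive libraries spread over a more than 3-fold range. Negative libraries held 1.48, 1.39 and 4.90 CPM, above E2-only. At HH18 the means were 6.02 CPM ± 0.155 in double-positive against 8.83 ± 2.50 in the E2-only cells.

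On chromosome Z, 13866983 to 13867183 went in opposite directions at the stages. It held 2.26, 1.44 and 3.34 CPM in double-positive against 0.209, 0.201 and 0.450 in the E2-only libraries at HH25. The E2-only values were again 1, 1 and 2 counts, and the ratio of summed counts was 8.77 (95% counting interval 3.00 to 34.9). Without double-positive replicate 3 the adjusted p was 0.0779 and the call was lost. At HH18 E2-only cells had the higher level, 14.8 CPM ± 2.97 against 6.53 ± 0.826, and the interval was called lower in double-positive cells.

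Other large increases continued an HH18 difference. Chromosome 19 from 2793438 to 2793638 held 27.1, 31.7 and 25.1 CPM in double-positive against 3.76, 5.22 and 3.60 in the E2-only libraries (log2 2.71, SE 0.28, adjusted p = 6.23e-12). Double-positive libraries were tightly grouped and far above the 2.14 to 3.79 CPM of negative cells. At HH18 this difference was larger (log2 4.69, SE 0.32), with 43.8 CPM ± 14.1 against 1.44 ± 0.969, and the change between stages was called (adjusted p = 0.00252). Chromosome 2 from 27408708 to 27408908 was at 7.16, 9.73 and 9.50 CPM against 1.67, 0.803 and 1.12, and had 23.7 CPM ± 2.33 in HH18 double-positive cells. Chromosome 10 from 16202150 to 16202350 was at 7.92, 5.40 and 5.39 CPM against 0.417, 1.204 and 0.675. Its HH18 log2 change of 2.91 was nearly equal to the 2.94 at HH25.

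A wider spread marked several of these intervals. Chromosome 3 from 41642293 to 41642493 ranged from 11.5 to 20.4 CPM over double-positive libraries and from 0.401 to 4.59 over E2-only libraries, and chromosome 4 from 65605924 to 65606124 from 7.19 to 15.5 and from 0.201 to 2.47. As the choice required, neither overlapped and both were called (adjusted p = 8.39e-09 and 3.43e-07, edgeR). Of the 10 increases 7 were also called higher at HH18, 1 was called lower there and 2 were not called. Over all HH25 higher calls 69.2% were also called higher at HH18, so the count of 7 is near the share of higher calls in general. The remaining members, on chromosome 24 from 1705285 to 1705485 and on chromosome Z from 21499755 to 21499955, had HH18 log2 changes of 3.07 and 0.89. The second of these widened with stage (interaction log2 1.98, SE 0.51, adjusted p = 0.00301).

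Decreases of the greatest size lay close to the counting floor in double-positive cells. Chromosome 5 from 11153617 to 11153817 held 0.377, 0.360 and 0.770 CPM in double-positive libraries, which are 1, 1 and 3 counts, and 4.59, 2.21 and 5.40 CPM in E2-only libraries. Negative libraries held 5.61, 2.39 and 2.80 CPM, overlapping the E2-only libraries. E2-only exceeded double-positive cells 7.48-fold in summed counts (95% counting interval 3.02 to 23.9). At HH18 both populations were at a like and higher level, 18.01 CPM ± 4.28 and 17.9 ± 0.884, and the interaction was called (adjusted p = 0.00312).

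Chromosome 4 from 21173089 to 21173289 gave 0.377, 0.720 and 1.03 CPM in double-positive, 6.89, 4.01 and 5.40 in the E2-only and 3.96, 2.99 and 4.67 in the negative libraries. Summed counts were 7.21-fold higher in E2-only libraries (interval 3.34 to 18.5). Negative cells at HH18 held 20.8 CPM ± 2.90 there, above both reporter populations at 2.80 ± 0.731 and 5.68 ± 1.82. Chromosome 2 from 146736283 to 146736483 was at 0.377, 1.44 and 0.257 CPM against 5.01, 5.62 and 1.80 CPM, a ratio of 6.56 (2.84 to 18.6). Its HH18 level was far higher in E2-only cells, at 49.3 CPM ± 3.63 against 6.40 ± 1.11 in double-positive and 8.64 ± 3.95 in negative cells. It was called lower in double-positive cells at HH18 too.

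Chromosome 5 from 8136956 to 8137156 repeated that pattern, with 27.7 CPM ± 1.09 in E2-only against 4.34 ± 3.57 in the double-positive cells at HH18 and 3.97, 3.81 and 6.07 against 1.13, 0.360 and 0.513 at HH25. Over the 10 decreases 8 were also called lower at HH18 and 2 were not called, against 20.3% of all HH25 lower calls. Nothing is read from that count, since intervals this weak in HH25 double-positive cells passed the limit on abundance through their HH18 levels. The double-positive counts of each summed to between 5 and 8 over 3 libraries, so the fold sizes rest on few reads. Among the others were chromosome 3 from 86033640 to 86033840, where E2-only exceeded double-positive counts 6.28-fold (2.88 to 16.2), and chromosome 2 from 109291970 to 109292170, with 6.23 (3.01 to 14.9). Chromosome 1 from 39410377 to 39410577, chromosome 13 from 4504929 to 4505129, chromosome 6 from 8044891 to 8045091 and chromosome 6 from 5455527 to 5455727 gave ratios of 6.67, 6.69, 6.56 and 7.87.

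The smallest p-values marked stronger elements. Chromosome 6 from 24892443 to 24892643 had 50.9, 43.6 and 41.6 CPM in double-positive against 9.60, 10.2 and 9.00 in the E2-only libraries. Both populations were above the 3.63, 1.79 and 4.67 CPM of negative libraries, with no overlap among the 3 groups. Its log2 change of 2.23 (SE 0.21, adjusted p = 5.24e-13) was smaller than the 4.399 at HH18, and the difference between stages was called (adjusted p = 4.79e-07). At HH18 the double-positive mean was 110 CPM ± 8.38 and the E2-only mean 5.14 ± 1.41. The double-positive mean was thus lower and the E2-only mean higher at HH25.

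Chromosome 12 from 5381674 to 5381874 gave 50.9, 58.4 and 56.2 CPM against 13.6, 14.0 and 11.2 (log2 2.09, SE 0.20), with 5.98 to 8.58 in negative libraries. Chromosome 1 from 12720793 to 12720993 gave 47.9, 58.7 and 57.5 CPM against 14.8, 11.0 and 15.5 (log2 1.99, SE 0.20), with 2.57 to 6.18 in negative libraries. Chromosome 3 from 53502204 to 53502404 gave 53.2, 43.6 and 58.0 CPM against 15.9, 15.0 and 9.45 (log2 1.94, SE 0.20), with 2.14 to 3.98 in negative libraries. In each of these 3 the E2-only libraries stood between the other populations without overlap. On chromosome 3 from 92012909 to 92013109 the values were 32.1, 40.3 and 34.4 CPM against 6.26, 4.82 and 7.87, with 1.79 to 2.57 in negative libraries. All 4 had a larger log2 change at HH18, between 3.33 and 4.32, and all 4 were called lower in the interaction, as were 26.8% of all higher calls. Chromosome 6 from 23941286 to 23941486 differed, since E2-only (7.10, 8.63 and 7.20 CPM) overlapped negative libraries (6.60, 7.77 and 6.30) and only double-positive libraries (34.3, 33.9 and 41.6) stood apart. Its HH18 and HH25 log2 changes were 2.74 and 2.26, and the interaction was not called (adjusted p = 0.418).

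Of the 6 lower calls chosen by smallest p, 2 were also called lower at HH18, and the interaction was called for 1, in the lower direction. Over all HH25 lower calls these shares were 20.3% and 23.0%, so nothing is read from counts this small. Chromosome 7 from 8849928 to 8850128 held 6.03, 5.76 and 7.96 CPM in double-positive, 24.4, 24.5 and 22.7 in the E2-only and 11.4, 14.9 and 19.6 in the negative libraries. Its 3 groups did not overlap, and E2-only was the highest (log2 -1.82, SE 0.28, adjusted p = 6.07e-07). At HH18 it was low in both reporter populations, at 1.89 CPM ± 1.65 and 1.25 ± 0.854, with 5.46 ± 3.14 in negative cells. The interaction was called for this interval (adjusted p = 0.00838).

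Chromosome 1 from 30545192 to 30545392 held 3.02, 5.76 and 3.59 CPM in double-positive against 14.8, 15.9 and 18.7 in the E2-only libraries, with 0.725 ± 0.395 and 0.600 ± 0.249 at HH18. Chromosome 4 from 48807093 to 48807293 held 4.52, 1.08 and 1.54 CPM against 8.35, 14.8 and 11.5, with 0.832 ± 0.231 and 0.591 ± 0.468 at HH18. These elements held at most 4 and 7 counts in any HH18 library of either population, and HH25 negative libraries held 12.2 to 15.2 and 3.03 to 7.09 CPM. The interaction was not called for either (adjusted p = 0.149 and 0.0902), with standard errors of the HH18 log2 change of 0.93 in both. Chromosome 2 from 83391261 to 83391461 was at 2.26, 2.16 and 3.34 CPM against 8.14, 15.7 and 14.2, and chromosome 7 from 20706322 to 20706522 at 11.3, 11.2 and 8.47 against 29.8, 27.7 and 26.5. The second of these was called lower at HH18 as well (log2 -1.34, adjusted p = 0.00479). Chromosome 7 from 31433969 to 31434169 was at 4.90, 5.76 and 10.8 CPM against 22.1, 24.3 and 18.9. It was called lower at HH18 too, with 14.9 CPM ± 3.27 against 56.9 ± 3.98.

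Neighbouring intervals were next read together. A locus is a run of at least 3 tested intervals whose neighbours lie within 10 kb, set by position alone, and reads were summed over it. Of 15795 loci, with a median of 5 intervals and 18.03 kb, 2299 (14.6%) were higher in double-positive cells and 653 (4.13%) lower. Median log2 changes were 0.64 and -0.60, smaller than for single intervals. Only higher calls were present in 4805 loci, only lower calls in 1583, both in 1325 and neither in 8082. Every interval was called in 10 of the higher loci, and the usual pattern was a called element among neighbours that were not called. Higher loci numbered 1479 without double-positive replicate 2 and 1522 without E2-only replicate 2. With library totals alone 1391 loci were higher and 1387 lower, so the excess of higher loci depended on the scaling.

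The locus with the smallest p was chromosome 6 from 24892443 to 24899182 (log2 1.92, SE 0.18, adjusted p = 1.88e-13). It rests on 1 of 3 intervals, the one described above. Chromosome 3 from 45369973 to 45388898 had 3 of 5 intervals called higher and held 103, 124 and 85.2 CPM in double-positive, 42.2, 37.5 and 34.6 in the E2-only and 22.6, 24.1 and 21.0 in the negative libraries. Chromosome 1 from 64181437 to 64192783 had 3 of 4 called and held 112, 106 and 105 CPM against 43.8, 36.1 and 38.9, with 24.1, 12.9 and 13.3 in negative libraries. In both loci the 3 populations were graded without overlap, in the order found at single intervals. Chromosome 1 from 127039022 to 127044209 had 3 of 4 called and 61.1, 72.0 and 62.9 CPM against 20.5, 17.9 and 22.3. Its difference was larger than at HH18 (log2 1.69 against 0.69, interaction adjusted p = 0.000148). E2-only cells held 42.6 CPM ± 6.97 there at HH18 and 20.2 ± 2.22 at HH25, while double-positive cells held 70.3 ± 7.24 and 65.3 ± 5.88. Most of the E2-only fall lay in the interval from 127044009, with means of 20.4 CPM at HH18 and 1.41 at HH25. That interval was not called at HH25 and was called lower in double-positive cells at HH18 (log2 -1.83). In order of position, the 3 called intervals had log2 changes of 1.28, 0.01 and 2.98 at HH18 and 1.50, 1.66 and 2.05 at HH25. Chromosome 1 from 86494122 to 86517488 had 2 of 5 called and 60.3, 43.9 and 63.9 CPM against 19.6, 16.9 and 15.5.

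Lower loci were led by chromosome 1 from 146800747 to 146807659, with 2 of 3 intervals called. It held 6.03, 6.12 and 9.24 CPM in double-positive, 24.2, 26.1 and 19.1 in the E2-only and 15.2, 12.8 and 16.8 in the negative libraries. The 3 groups did not overlap (log2 -1.65, SE 0.25, adjusted p = 4.88e-07), while at HH18 the means of 5.09 ± 0.656 and 5.16 ± 0.882 CPM were nearly equal. The interaction was called (adjusted p = 0.00408). Chromosome 1 from 2749105 to 2778989, with 4 of 8 called, held 21.9, 22.3 and 22.1 CPM against 43.8, 54.8 and 37.6, and was called lower at HH18 as well. Of its intervals only that from 2751738, which was also called at HH25, was called lower at HH18 (5.30 against 23.0 CPM). The interval from 2778789 was called higher at HH18 (log2 1.30). Chromosome 1 from 43978115 to 44001074, also with 4 of 8 called, held 35.1, 38.5 and 40.3 CPM against 73.7, 62.4 and 68.6. Negative libraries at these loci held 47.6 to 52.8 and 74.1 to 84.7 CPM, not below E2-only on average. Chromosome 2 from 5183163 to 5194319 had 2 of 4 called (13.2, 17.3 and 25.7 CPM against 39.0, 37.9 and 42.3) and chromosome 3 from 27834863 to 27843076 had 1 of 5 (21.1, 27.4 and 20.3 against 46.7, 46.6 and 44.3). Over its summed reads, the first of these had no called difference at HH18 and a called interaction (adjusted p = 0.00107). Of its intervals only that from 5194119 had a called interaction. That interval was called higher at HH18 (log2 1.14) and was not called at HH25. The second locus was lower at both stages over its summed reads, but the called intervals differed. At HH18 only that from 27842876 was called lower (log2 -2.67), and it was not called at HH25. The interval from 27839360, called lower at HH25, was not called at HH18 (log2 -0.47).

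Calls were spread over the genome. Among 1026 windows of 1 Mb with at least 20 tested intervals, 920 held more higher than lower calls and 71 the reverse, and the median shares were 8.17% and 3.08%. The richest window in higher calls was chromosome 9 from 0 to 1 Mb, with 11 of 42 intervals (26.2%), followed by chromosome 1 from 160 to 161 Mb with 7 of 34, chromosome 3 from 44 to 45 Mb with 23 of 123 and chromosome 2 from 77 to 78 Mb with 14 of 77. In the lower direction shares were smaller, at 5 of 43 on chromosome 2 from 52 to 53 Mb, 16 of 147 on chromosome 3 from 65 to 66 Mb, 2 of 20 on a contig assigned to chromosome 3 without a position and 13 of 131 on chromosome 1 from 53 to 54 Mb. The chromosome 3 window from 65 to 66 Mb held 15 higher calls as well. The interval following a higher call within 10 kb was higher in 12.3% of cases, against 8.14% after an uncalled interval. For lower calls these shares were 5.26% and 3.26%.

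**Figure D4:**
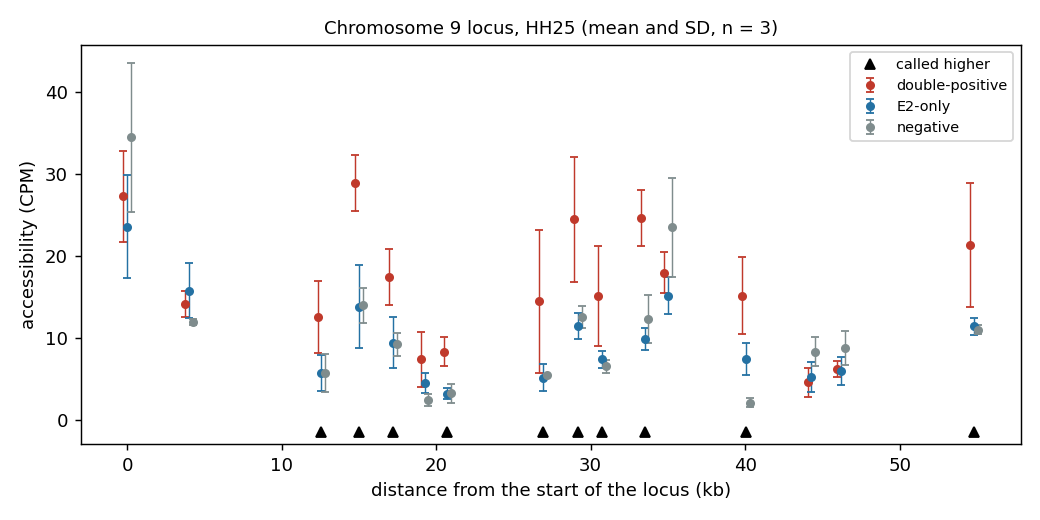
Accessibility (CPM, mean and SD of 3 libraries) at HH25 of the 16 intervals of the chromosome 9 locus against distance from its start (kb), by population; triangles mark the 10 intervals called higher in double-positive than E2-only cells. Apart from the interval from 969928, the called intervals lie between 927690 and 955389 of the 55.0 kb, with intervals that were not called among them.

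Of the 11 higher calls in the first 1 Mb of chromosome 9, 10 lay in 1 locus from 915117 to 970128, which spans 55.0 kb and 16 intervals (log2 0.76, SE 0.13, adjusted p = 8.79e-05). Its interval from 948609 to 948809 held 24.5, 21.3 and 28.0 CPM in double-positive against 10.9, 10.4 and 8.32 in the E2-only libraries (log2 1.32, SE 0.24, adjusted p = 1.72e-05). Double-positive libraries were all above E2-only libraries there. The interval from 942043 to 942243 held 10.9, 7.92 and 24.4 CPM against 4.38, 4.01 and 6.97, with double-positive replicate 3 far above the other 2. Between and beside the calls, the intervals from 915117 and 950128 had log2 changes of 0.21 and 0.23 and were not called. At HH18 6 of these 10 intervals were also called higher, near the 69.2% over all HH25 higher calls. The plot of the chromosome 9 locus shows E2-only and negative cells at similar levels at most of its called intervals, and an exception from 955189 to 955389, where means were 15.1 CPM in double-positive, 7.38 in the E2-only and 2.03 in the negative cells.

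The density of calls differed by chromosome class. Higher and lower calls made up 8.91% and 3.70% of intervals on chromosomes 1 to 5, 8.27% and 3.13% on chromosomes 6 to 10 and 6.35% and 2.75% on the small chromosomes 11 to 33. On chromosome Z they made up 9.34% and 2.42%. Reads on Z made up 5.07%, 5.29% and 6.04% of double-positive and 5.49%, 5.32% and 5.34% of E2-only libraries. These groups overlapped, with double-positive replicate 3 the highest. Chromosomes 27 and 33 were exceptions among the numbered chromosomes with over 100 intervals, with more lower than higher calls (30 against 24 of 826, and 12 against 5 of 295). These were singled out after their values were seen. Contigs outside the assembled chromosomes stood apart, with 906 of 7749 intervals higher (11.7%), 51 lower (0.658%) and a median log2 change of 0.37. Reads on contigs made up 7.05%, 7.21% and 7.003% of double-positive and 5.59%, 5.89% and 6.49% of E2-only libraries at HH25. The whole class was thus higher in double-positive libraries at this stage, and its part in these calls was not tested. The groups did not overlap, and the exact two-sided permutation test of 3 against 3 gave its smallest possible p of 0.1. At HH18 the groups did overlap, with contig shares of 3.25%, 3.65% and 3.89% in double-positive and 4.01%, 3.62% and 4.07% in E2-only libraries. The share of contig intervals called higher at HH25 was 7.24% without double-positive replicate 3 and 6.76% without E2-only replicate 2. Higher calls over all intervals fell too, from 11373 of 134020 to 8132 of 135911 and 7858 of 136099, so a fall was not confined to contigs. In proportion the contig share fell further in both cases, and this difference was not tested. On chromosome W 11 of 96 intervals were higher, and reads on W made up 0.0758%, 0.0767% and 0.0572% of double-positive and 0.0555% to 0.0578% of E2-only libraries. With the fit restricted to numbered chromosomes, 9374 of 118529 tested intervals were higher and 4648 lower. Of these lower calls 4014 were also lower in the main fit. The higher share of calls was 66.9%, against 72.8% in the main fit, which also covers Z, W and contigs.

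The same contrast at HH18, from other libraries, showed which differences were present earlier. At HH18 17.7% of intervals were called higher and 17.9% lower in double-positive than E2-only cells, so HH25 had fewer calls in both directions. HH18 libraries held 3004493 to 3477552 reads in double-positive, 2586375 to 6976050 in E2-only and 992341 to 3604040 in negative cells. In these groups 5.66% to 6.31%, 2.21% to 10.2% and 2.52% to 23.8% of intervals lay at the lowest value. The part of depth in the numbers of calls at the 2 stages was not tested. Of the 11373 HH25 higher intervals 7871 (69.2%, and 33.1% of the HH18 higher list) were also higher at HH18, 3044 (26.8%) were not called and 458 (4.03%) were lower. Of the 4250 lower intervals 861 (20.3%, and 3.58% of the HH18 lower list) were lower at HH18, 3158 (74.3%) were not called and 231 (5.44%) were higher. Higher calls were thus mostly shared between stages, while the share of lower calls that were lower at HH18 was near the 17.9% found over all intervals. The 5.44% that were higher at HH18 lay below the 17.7% over all intervals. At these lower calls HH18 library medians were 2.24 to 2.55 CPM in double-positive and 2.22 to 2.60 in E2-only cells. At intervals not called at HH25 they were 4.01 to 4.27 and 4.34 to 4.47. Whether the weaker level limited the HH18 calls was not tested. The 861 became 471 without HH25 double-positive replicate 3. Stage cannot be told apart from other differences between how the HH18 and HH25 libraries were made or sequenced.

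**Figure D5:**
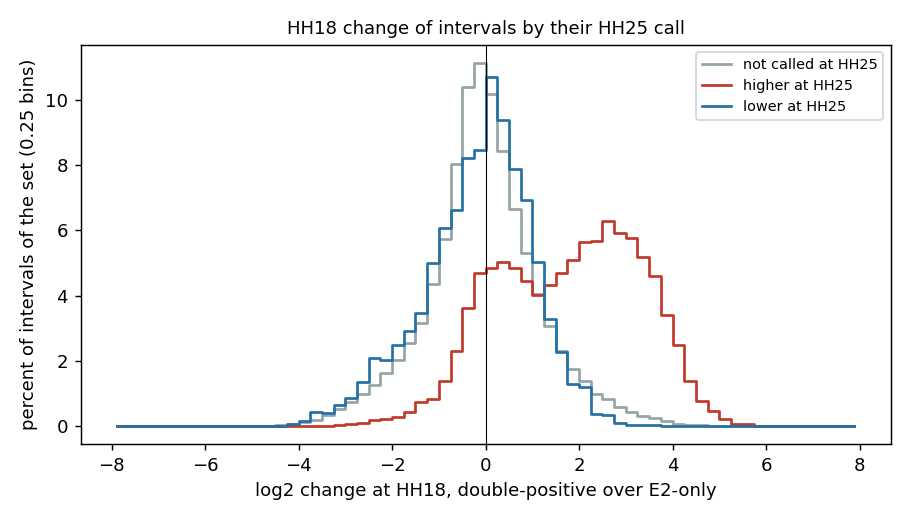
Distribution of the HH18 log2 change (double-positive over E2-only) for intervals called higher, called lower or not called at HH25, as percent of each set in bins of 0.25. Intervals higher at HH25 lie mostly right of 0 (median 1.90), while those lower at HH25 are centred near 0 (median -0.03) like all intervals.

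Among HH25 higher calls the HH18 log2 change was above 0 for 85.2%, with a median of 1.90. Among HH25 lower calls it was above 0 for 48.8%, with a median of -0.03, against 50.1% and 0.00 for all tested intervals. At the HH25 higher calls, median levels at HH18 were 13.8 to 14.8 CPM in double-positive, 3.10 to 3.51 in E2-only and 2.74 to 3.00 in negative libraries. At the HH25 lower calls they were 2.24 to 2.55, 2.22 to 2.60 and 4.01 to 4.56 CPM. Library medians of both reporter populations thus overlapped at HH18. Single lower calls went both ways there, with quartiles of the HH18 log2 change of -0.86 and 0.61.

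Whether the population difference itself changed between stages was tested by an interaction in the same edgeR fit. It was higher at HH25 at 11996 intervals (8.95%) and lower at 12364 (9.23%). Among the higher ones, 9510 were called lower at HH18 and were not called at HH25. Among the lower ones, 7486 were called higher at HH18 and were not called at HH25. In both directions most were thus HH18 differences that were not called at HH25. The interaction uses the same HH18 and HH25 libraries as those calls, so this split is a description. Of the 11373 HH25 higher calls 1582 (13.9%) had a higher and 3044 (26.8%) a lower interaction. Both tests use the same HH25 libraries, so these counts are a description. Of the 3044 higher calls that were not called at HH18 (an equal count of different intervals), 1085 passed the interaction test. For lower calls 979 had a lower and 68 a higher interaction, and 747 of the 3158 not called at HH18 passed. For the others a change between stages was not shown.

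Intervals called in opposite directions at the stages were few. The clearest of the 458 that were higher at HH25 and lower at HH18 lay on chromosome 1 from 89078220 to 89078420. It held 16.6, 18.01 and 17.2 CPM in HH25 double-positive and 9.81, 7.22 and 7.42 in HH25 E2-only libraries, against 6.57, 7.08 and 5.47 and 52.7, 49.9 and 53.6 at HH18. The groups were separate at both stages, and E2-only went from the highest population to the middle one, with 4.56 CPM ± 2.13 in HH25 negative cells. The interaction log2 was 4.11 (SE 0.37, adjusted p = 1.03e-14, edgeR). All intervals called in opposite directions at the stages passed the interaction test, and the named ones were picked by its smallest p. Their interaction values are therefore a description. Chromosome Z from 50653981 to 50654181 went from 15.1 CPM ± 6.67 and 85.9 ± 4.67 at HH18 to 8.79 ± 1.54 in double-positive against 2.88 ± 0.153 in the E2-only cells. Chromosome 4 from 6796023 to 6796223 had 4.15, 16.6 and 12.1 CPM against 4.38, 3.21 and 1.35 at HH25, so double-positive replicate 1 overlapped the E2-only libraries. Chromosome 4 from 59796897 to 59797097 had 16.6, 19.8 and 11.0 CPM against 6.89, 7.62 and 7.87, and its HH25 call was lost without double-positive replicate 2 (adjusted p = 0.0853). Without 1 of the 6 HH25 libraries the 458 became 292, 302 and 265 (double-positive replicates 1 to 3) and 304, 242 and 266 (E2-only replicates 1 to 3).

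Among the 231 in the other order was chromosome 10 from 11166438 to 11166638, with 18.1, 21.97 and 20.3 CPM in HH25 double-positive and 33.8, 37.1 and 34.4 in HH25 E2-only libraries. At HH18 it stood at 39.0 CPM ± 1.67 in double-positive, 8.53 ± 3.42 in the E2-only and 33.7 ± 3.19 in the negative cells. The HH25 E2-only libraries were near the negative cells, which held 38.0 ± 7.88 at HH25. Chromosome 2 from 15414585 to 15414785 was similar, at 11.3, 10.1 and 10.0 CPM against 25.04, 19.7 and 22.05 at HH25 and 12.0 ± 1.68 against 2.51 ± 0.262 at HH18 (interaction log2 -3.33, SE 0.43, adjusted p = 4.1e-09). Negative cells held 20.8 CPM ± 3.86 and 23.6 ± 2.47 there. Chromosome 4 from 16720701 to 16720901 (32.1, 29.2 and 30.0 CPM against 45.5, 50.2 and 40.3) and chromosome 3 from 76629759 to 76629959 (6.79, 4.68 and 6.16 against 11.7, 10.2 and 13.9) lost their HH25 call when 1 library was left out. The adjusted p of the first was 0.0656, 0.0776 and 0.115 without double-positive replicates 2 and 3 and E2-only replicate 2. For the second it was 0.0824, 0.0615 and 0.0818 without double-positive replicates 2 and 3 and E2-only replicate 3. The 231 became 153 without E2-only replicate 2.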

How the data were processed

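The deposited values are counts of reads per interval for a common set of 140062 intervals, of which 140061 are 200 bp wide, described per the labels as raw. MACS2, HOMER 4.7, Bowtie 1.0.0 and galGal5 are named, with no roles, per the submitters' processing notes. The sources used here do not give the choice of intervals, duplicate removal, any shift of read ends for the transposase or whether coordinates count from 0 or 1. Libraries had 11 PCR cycles and 40 bp paired reads, per the labels' protocols. Since amplified reads are not independent molecules, floors and counting intervals cover counting error only. Columns were matched to samples by title. Another 9 columns name a stage other than the labels do and were left out, and the HH10 groups are not analysed here. No galGal5 genome or annotation was used, so planned gene neighbourhoods, markers and sequences are not used here.

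Counts were analysed with edgeR 4.0.16 in R 4.3.3. Intervals were filtered by filterByExpr (134020 left), scaled by TMM and fitted with 1 mean per group over the 18 HH18 and HH25 libraries, with a robust quasi-likelihood test at a Benjamini-Hochberg adjusted p below 0.05. Standard errors come from the F statistic, and CPM use TMM-scaled totals. Loci were fitted apart from single intervals. The procedure was also run on simulated counts with the same dispersion at every interval and few changes, balanced in direction. That run cannot test how the calls depend on the scaling. Replicates differed by a chi-square of 2.05 to 2.51 per degree of freedom and each was counted as 1 sample. P-values measure only the spread between these pools. DESeq2 1.42.0 and other settings served as alternatives. Named intervals were the 10 higher and 10 lower with the greatest absolute log2 change among calls without overlap and above the median abundance, then 6 and 6 by smallest p. Also named were 5 and 5 loci and 4 and 4 reversing intervals by smallest p and 4 and 4 windows by share called. The comparison, lists and rules were chosen with earlier results of these data known.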

Additional observations from a re-analysis of the deposited data

Results flagged for a closer look

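The difference between double-positive and E2-only cells at HH25 differed from that at HH18 at 11996 intervals in the higher direction and at 12364 in the lower direction, by the interaction test itself (edgeR, Benjamini-Hochberg adjusted p below 0.05). They make up 8.95% and 9.23% of the tested intervals. Most of them, 9510 and 7486, were called in the opposite direction at HH18 and were not called at HH25. The interaction uses the same libraries as those calls, so this split is a description.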

How the results depend on the processing

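The direction of every named interval's change was the same under each alternative that gave a value, and 767 of 787 such values stayed on their side of the test. Of the 20 that did not, 12 arose when all 18 libraries were thinned to the lowest total. Thinning gave 3614 higher and 978 lower HH25 calls, interaction calls of 2613 and 3344, 2737 higher and 209 lower at both stages, 89 and 34 in opposite directions and 808 and 266 loci. It removes reads and leaves 55266 intervals to test. Median-of-ratios factors gave 1041 lower loci. Library totals gave 6900 lower intervals, 1358 lower at both stages, 431 lower at HH25 and higher at HH18, and 1391 higher and 1387 lower loci. DESeq2 gave 6952 higher intervals, 5207 higher at both stages, 255 and 144 in opposite directions and 1405 higher loci. An adjusted p below 0.01 gave 7046 and 1377 calls, interactions of 5981 and 6897, 243 lower at both stages, 135 and 25 in opposite directions and 1397 and 258 loci. Loci joined within 20 kb gave 1201 and 175. Chosen after seeing the data, HH25 libraries thinned to the lowest HH25 total left 301 higher at HH25 and lower at HH18, and edgeR's earlier dispersion scheme gave 2771 lower calls. The cause was not tested.

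Leaving out 1 HH25 library at a time gave 7858 to 9187 higher and 2512 to 3699 lower intervals. Leaving out any 1 of the 12 double-positive and E2-only libraries gave shared higher calls of 5863 to 7309 and shared lower calls of 471 to 915. Opposite calls ran from 242 to 381 and from 153 to 262, and interactions from 8107 to 10892 and from 10568 to 12486. Loci, for which only HH25 libraries were left out, numbered 1479 to 1669 higher and 449 to 595 lower.

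No shared deviation by replicate number was seen. Same-numbered double-positive and E2-only libraries deviated together with correlations of -0.0127 to 0.0227, against -0.0338 to 0.0452 for other numbers. These few values cannot show whether same-numbered pools came from the same embryos. A replicate block of stage and number gave 11371 higher and 4269 lower calls.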
